A study of Mus musculus with 12 samples.

Results

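Cortex of Tg mice fed doxycycline was compared with cortex of non-transgenic mice on the same feed, to describe what was left of the genotype difference on a feed that turns down the tau transgene. The comparison set the 3 Tg + Dox arrays against the 2 Non + Dox arrays, 5 of the 12 Clariom D arrays of the series. It covered every transcript cluster with a single gene symbol that lay above the intensity floor of the study's methods on at least 1 of 11 arrays. These were 12745 clusters of 12564 symbols, called genes here, out of 30638 clusters with a single symbol. Of them, 11551 were above the floor on all 5 Dox arrays and 281 on none of these. Tg mice (rTg4510) carried Tg(Camk2a-tTA)1Mmay and Tg(tetO-MAPT*P301L)4510Kha/J, and Non mice were littermates labelled wild type FVB/NJ, onto which the Tg line had been backcrossed. Doxycycline was given in the feed at 200 ppm for 35 days, from an age of 3.5 months, and Veh mice were on vehicle feed for as long. The labels put human tau at 5 to 8 times the level of mouse tau in Tg + Dox and at 13 times in Tg + Veh. The 3 Tg + Veh arrays (2 male, 1 female) and 3 Non + Veh arrays (1 male, 2 female) entered the same fit, and a further Tg + Veh array that failed the study's quality control was left out.

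In rTg4510 mice the Camk2a promoter, active in excitatory neurons of the forebrain, drives the tTA protein, and tTA switches on human tau with the P301L change from the tetO promoter. Doxycycline binds tTA and releases it from that promoter, so neurons make less transgenic tau RNA while tau protein already deposited can persist. Around neurons that hold tau aggregates, astrocytes raise intermediate filaments such as GFAP, and microglia take on a state rich in complement, lysosomal proteins and the TREM2 and TYROBP receptor pair. Immediate-early genes such as Fos and Arc follow the recent activity of neurons. Transgenic tau was not analysed here, and mouse tau, read by the cluster of Mapt, was at 9.77, 9.85 and 9.96 on the Tg + Dox arrays and at 9.70 and 9.78 on the Non + Dox arrays, a log2 difference of 0.12 (adjusted p = 0.871 from limma).

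Levels are log2 RMA intensities, and every difference is the mean of Tg + Dox minus the mean of Non + Dox on that scale unless another pair is named. Sex, the transgene sites and tied values touch the results. Both Non + Dox arrays were from males, whereas Tg + Dox 1 was from a male and Tg + Dox 2 and 3 from females, and Xist, which shuts down 1 X chromosome of female cells, followed these labels. Fgf14, in which the tau transgene of this line is inserted, followed the genotype labels on all 11 arrays. Esyt2, Ptprn2 and Wdr60, neighbours at the insertion site of the tTA transgene, did not: Esyt2 was at 9.74, 9.72 and 9.55 on the Tg + Dox arrays, against 11.23 on Non + Dox 1 and 9.61 on the array labelled Non + Dox 2. On vehicle feed Esyt2 was at 9.45, 9.53 and 9.63 in Tg + Veh, against 10.86 and 10.90 on Non + Veh 1 and 2 and 9.60 on the array labelled Non + Veh 3. Non + Dox 2 and Non + Veh 3 were thus at the Tg level for Esyt2, and likewise for Ptprn2 and Wdr60. Without Non + Dox 2, Gfap differed by 2.30, C1qb by 1.23 and Fgf14 by −1.05. Several counts and list medians without it are given with those results. As for tied values, 2842 genes (22.3%) held exactly the same value on a Tg + Dox and a Non + Dox array, and such genes count as overlapping. The median SD of a gene was 0.0923 among the Tg + Dox arrays and 0.0717 among the Non + Dox arrays. The number of arrays limits the precision, and since the sources used here do not say how many mice each array's RNA came from, a p measures the spread between samples.

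No gene was called different between Tg + Dox and Non + Dox at an adjusted p under 0.05 in limma (0 of 12745, 0%). The smallest adjusted p was 0.167, for Fgf14. By the unadjusted p, at 0.05, 267 genes were higher in Tg + Dox (2.09%) and 508 lower (3.99%), and gene-wise tests without moderation called 0 genes too. By separation of the arrays, 805 genes lay higher on all 3 Tg + Dox arrays than on both Non + Dox arrays (6.32%) and 1147 lay lower (9%). With 3 arrays against 2, many genes separate in this way without any difference between the groups, so these counts alone do not show one. Both conditions at once, with the p under 0.01, held for 54 higher genes (0.424%) and 117 lower genes (0.918%). Most genes differed little: 48.3% of differences were above 0, 91.0% of genes were within 0.25 of 0 in either direction, and the 95% interval of the difference lay inside 0.5 of 0 for 80.7% and inside 1 of 0 for 97.9%. A difference above 0.5 was seen for 41 genes, and 115 genes were lower by more than 0.5. Between Tg + Veh and Non + Veh the same counts were 260 and 88.

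The count at an unadjusted p under 0.05, 775 in all, depended on single arrays. It was 435 without Tg + Dox 3, 1405 without Tg + Dox 1 and 1238 without Non + Dox 2. Without Non + Dox 2, which leaves a lone Non + Dox array that is assumed to vary like the other groups, 3 genes were called: Gm22973 (−1.63), Gm25899 (−0.73) and Gm25939 (−1.49). Gm22973 was at 6.63, 6.49 and 6.48 on the Tg + Dox arrays, against 8.17 on Non + Dox 1 and 6.56 on Non + Dox 2, so each of these calls set the Tg + Dox arrays against the high value of a single array. In a fit to the 5 Dox arrays alone, 2 clusters of Tmem181a were called, and they are described with the other genes that split within groups.

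On vehicle feed, on arrays that the doxycycline comparison does not use, 232 genes were called higher in Tg + Veh than in Non + Veh (1.82%) and 17 lower (0.133%). These 249 genes show how the genotype difference on vehicle feed looked on doxycycline feed. The 232 genes had a median difference of 0.14 on doxycycline feed (quartiles 0.03 and 0.26), against a median of 0.56 on vehicle feed. Of them, 195 (84.1%) were above 0 in Tg + Dox, where 48.3% of all genes were. On all 3 Tg + Dox arrays 99 (42.7%) lay above both Non + Dox arrays and 4 lay below, where 6.32% and 9% of all genes did. The p was under 0.05 for 42 (18.1%) of the higher and 2 of the lower ones. The shared spread helped to choose these genes, so the counts of overlap and of p are descriptions. The median ratio of the difference on doxycycline feed to that on vehicle feed was 0.239 (quartiles 0.0947 and 0.358), and it passed 0.5 for 15 genes. The vehicle value in this ratio is the one the genes were chosen by, so the ratio is a description. Of the 232 genes, 25 passed the intensity floor through vehicle arrays and were below it on every Dox array.

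The 17 genes called lower in Tg + Veh had a median of −0.19 on doxycycline feed, against −0.47 on vehicle feed. They were below 0 in 15 of 17. On every Tg + Dox array 8 (47.1%) lay lower than on both Non + Dox arrays, where 9% of all genes did. The count of 249 was itself sensitive to single vehicle arrays: it was 64 without Non + Veh 2, 69 without Non + Veh 1, 81 without Tg + Veh 2 and 129 without Tg + Veh 1. Without Non + Veh 3 it was 182. With all 12 arrays, which adds the Tg + Veh array that failed the study's quality control, it was 1. The choice of the 249 genes therefore rests on leaving that array out. The median of the 232 genes on doxycycline feed ranged from 0.11 without Tg + Dox 3 to 0.17 without Tg + Dox 1. Without Non + Dox 2 it was 0.13, with 176 of the 232 above 0.

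**Figure D1:**
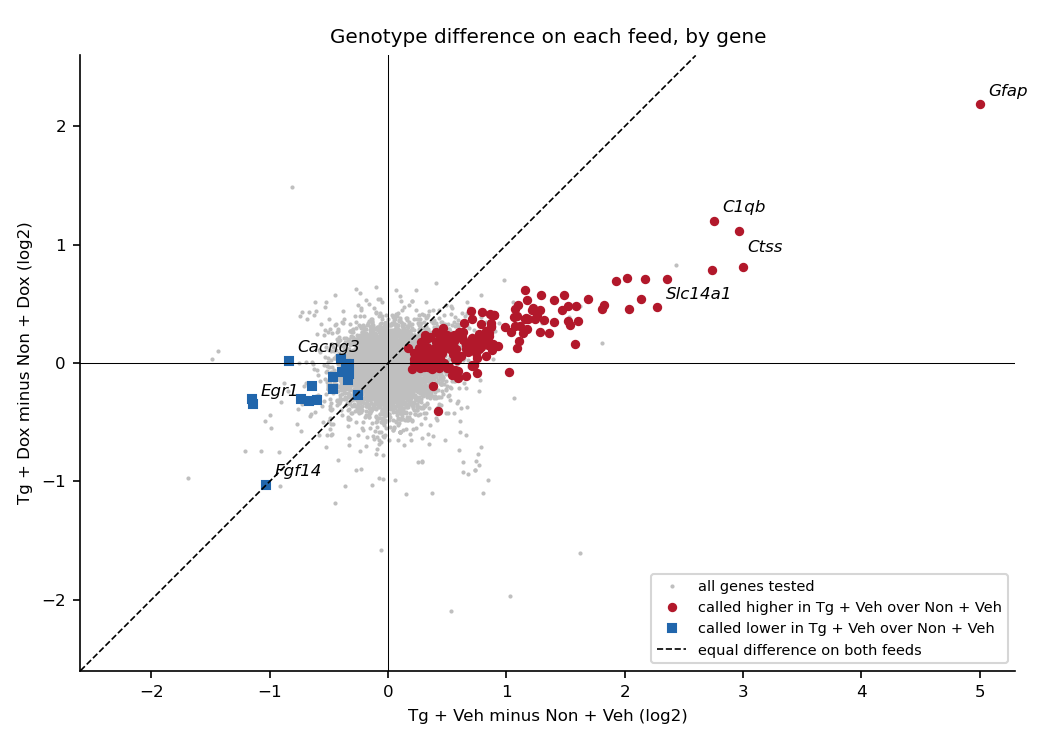
Log2 genotype difference on doxycycline feed (vertical, Tg + Dox minus Non + Dox) against that on vehicle feed (horizontal, Tg + Veh minus Non + Veh). Each point is a gene; red circles are the 232 genes called higher and blue squares the 17 called lower on vehicle feed, and 7 genes lie beyond the axes. The red circles lie mostly above 0 and below the dashed line of equal difference, while Fgf14 lies on that line.

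A test of whether the genotype difference itself differed between the feeds called 0 genes (0%) at an adjusted p under 0.05, and the smallest adjusted p in limma was 0.0899. Where the unadjusted p was under 0.05, the difference on doxycycline feed was the higher for 198 genes (1.55%) and the lower for 849 (6.66%). The 232 genes give no count here, since the vehicle difference that chose them is part of this test. Without Non + Dox 2, 12 genes were called, all lower on doxycycline feed, of which the RNA gene Gm22973 had the smallest adjusted p (0.00816). Across all 12745 genes the differences on the 2 feeds had a Pearson correlation of 0.127 and a Spearman correlation of 0.091, as a description across genes, which are not independent replicates.

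Array by array, the 232 genes stood a median of 0.091, 0.112 and 0.179 above the Non + Dox mean on Tg + Dox 1, 2 and 3. The Non + Dox arrays themselves were at 0.0053 and −0.0053. The Tg + Veh arrays were at 0.622, 0.562 and 0.511, and the Non + Veh arrays at −0.042, −0.052 and 0.036. On this median every Tg + Dox array was therefore above both Non + Dox arrays, which had no part in the means that chose the genes. Every Tg + Dox array was also above the Non + Veh arrays and below the Tg + Veh arrays, and Tg + Dox 3 was the nearest to Tg + Veh. The genes were chosen by those vehicle arrays, whose places on the median follow from the choice, so this order is a description.

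**Figure D2:**
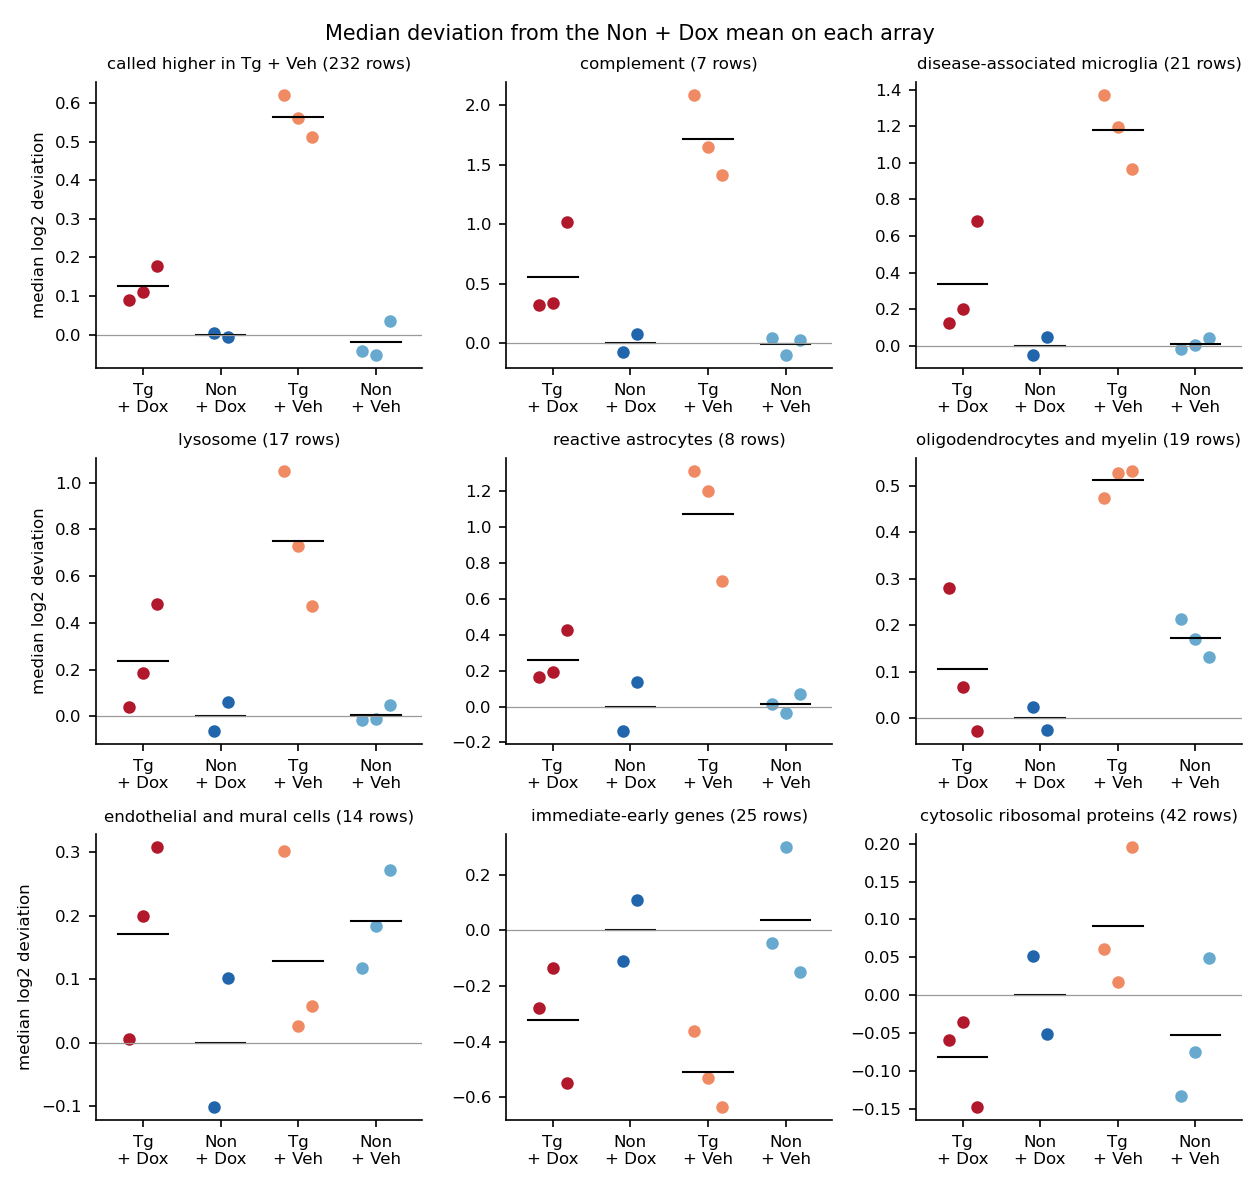
Median log2 deviation from the Non + Dox mean over the genes of a list (vertical), for each array (points) of the 4 groups (horizontal), with the group mean as a bar. The vertical scale differs between panels. Tg + Dox arrays lie between the Tg + Veh arrays and the Non arrays for the complement list, with Tg + Dox 3 the highest at 1.02, and below both Non + Dox arrays for the immediate-early list.

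Among the genes not linked to sex or split within groups, Gfap held the largest residual difference. Gfap, the intermediate filament of astrocytes, was at 12.31, 12.76 and 14.64 on the Tg + Dox arrays, against 10.94 and 11.16 on the Non + Dox arrays. All Tg + Dox arrays were above both Non + Dox arrays, and Tg + Dox 3 was far above the other Tg + Dox arrays. The difference of 2.19 (standard error 0.647), or 4.56-fold, did not pass over all genes (adjusted p = 0.691 from limma). It was 1.49 without Tg + Dox 3 and 2.65 without Tg + Dox 1. On vehicle feed Gfap was at 16.80, 16.45 and 15.41 in Tg + Veh, against 11.36, 10.74 and 11.55 in Non + Veh, a called difference of 5.00 (adjusted p = 0.00675). Of 8 measured genes of reactive astrocytes (15 listed), 7 were higher in Tg + Dox, 3 without overlap, where 6.32% of all genes were. The 8 genes had a median of 0.28. They included Osmr, a cytokine receptor (0.49), and Sox9, a transcription factor of astrocytes (0.24), while Serpina3n, a secreted protease inhibitor, differed by 0.32 with overlap, since Non + Dox 2 was at 13.35 and the Tg + Dox arrays at 13.23, 13.16 and 13.43. The median of this list was 0.07 without Non + Dox 1 and 0.48 without Non + Dox 2.

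Markers of resting astrocytes were closer to 0. Of 12 measured, 11 were higher in Tg + Dox, 3 without overlap, where 6.32% of all genes were, with a median of 0.09. With the male arrays only, 6 of 12 were above 0, with a median of 0.026, and without Tg + Dox 1 the median was 0.14. Slc14a1, a urea transporter, was at 8.65, 8.49 and 9.01 in Tg + Dox, against 7.98 and 8.51 in Non + Dox, so the groups overlapped. Its difference on doxycycline feed, 0.47, was lower by 1.80 than that on vehicle feed, 2.27 (adjusted p of the comparison between feeds 0.281). Gjb6, a gap junction protein, differed by 0.23 without overlap, and Aldoc, a glycolytic enzyme, by 0.33 with Tg + Dox 1 at the level of the Non + Dox arrays.

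Complement genes, which in cortex come mostly from microglia for C1q and from astrocytes for C4, were all higher in Tg + Dox. The 7 measured (10 listed) had a median of 0.54, against 1.69 on vehicle feed, 6 of them lay without overlap, where 6.32% of all genes did, and 5 had an unadjusted p under 0.05, where 2.09% of all genes were higher. Of the 7, C4a, C3ar1 and Itgb2, an integrin of complement receptors, were below the floor on every Dox array and entered through Tg + Veh, and 3 of the 7 were above the floor on all 5 Dox arrays, with a median of 0.58. C1qb was at 8.80, 9.08 and 9.96 in Tg + Dox, against 8.05 and 8.10 in Non + Dox, a difference of 1.20 (standard error 0.326, adjusted p = 0.691). C1qa differed by 0.58, C1qc by 0.54 and C4b by 0.78. C3ar1, the receptor of the C3a fragment, overlapped between the groups. All 7 were called on vehicle feed, where C1qb was at 11.36, 10.56 and 10.66 in Tg + Veh, against 8.16, 8.02 and 8.14 in Non + Veh. The median of the list was 0.33 without Tg + Dox 3 and 0.71 without Non + Dox 2.

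The microglial lists ran the same way with more overlap. Of 21 measured genes of disease-associated microglia (27 listed), 19 were higher in Tg + Dox and 10 of them lay without overlap, where 6.32% of all genes did. The median was 0.37, against 1.16 on vehicle feed, and 0.26 over the 13 genes above the floor on all 5 Dox arrays. Ctss, the protease cathepsin S of microglial lysosomes, measured 10.50, 10.38 and 11.70 in Tg + Dox, against 9.62 and 9.87 in Non + Dox (difference 1.12). Cd9, a tetraspanin, was at 8.07, 7.80 and 8.25, against 7.64 and 7.51 in Non + Dox (0.47), and Trem2 differed by 0.45 without overlap. Trem2, Cst7, Ccl6 and Clec7a were below the floor on every Dox array and entered through vehicle arrays. Clec7a, a receptor of activated microglia, was at 4.95, 4.92 and 6.20 in Tg + Dox, against 4.61 and 4.69 in Non + Dox. Lpl, a lipase that breaks down triglycerides of lipoproteins, went the other way, at 6.72, 6.49 and 6.55 in Tg + Dox, against 7.20 and 6.88 in Non + Dox (−0.45). On the median of this list Tg + Dox 3 stood apart at 0.682 above the Non + Dox mean, against 0.127 and 0.199 on the other Tg + Dox arrays, and the median difference was 0.19 without it and 0.37 without Non + Dox 2.

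Of 9 measured homeostatic microglial genes 8 were higher, 4 without overlap, where 6.32% of all genes were. Their median was 0.13, or 0.07 without Non + Dox 1 and 0.26 without Non + Dox 2. Siglech, a lectin of resting microglia, was at 8.26, 8.28 and 8.55 in Tg + Dox, against 7.98 and 8.15 in Non + Dox (0.30). Csf1r, the receptor on which microglia depend, differed by 0.53. It counts among the 4 without overlap only because Tg + Dox 1, at 9.24606, lay barely above Non + Dox 2, at 9.24571. All 17 measured lysosomal genes (23 listed) were higher in Tg + Dox, with a median of 0.21. Of them, 5 lay without overlap, where 6.32% of all genes did. Lgmn, a lysosomal protease, differed by 0.37 and Ctsh, a cathepsin, by 0.34. The median of the lysosomal list was 0.11 without Tg + Dox 3 and 0.35 without Tg + Dox 1, and 14 of 17 were above 0 without Non + Dox 2. The 4 measured interferon and MHC class I genes (16 listed) were higher by a median of 0.18, B2m and H2-K1 without overlap. H2-K1 was below the floor on every Dox array, and the median was 0.083 without Tg + Dox 3, with H2-D1 at −0.058 in the male arrays only. In bulk cortex more cells of a type and more RNA per cell cannot be told apart.

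**Figure D3:**
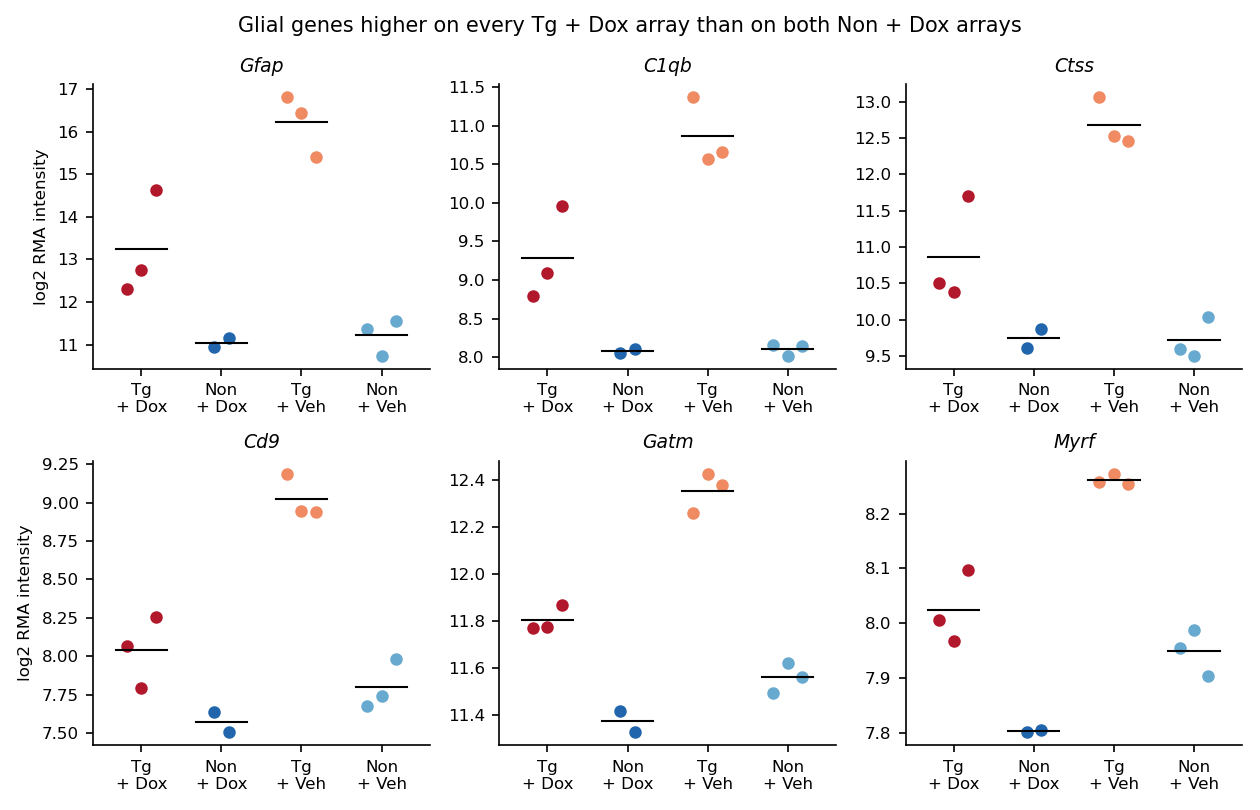
Log2 RMA intensity (vertical) of 6 glial genes on each array (points) of the 4 groups (horizontal), with group means as bars; the vertical scale differs between panels. In each panel the 3 Tg + Dox arrays lie above both Non + Dox arrays, and Gfap, C1qb and Ctss are highest on Tg + Dox 3 among them.

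Genes of oligodendrocytes and myelin differed in part. Of 19 measured, 15 were higher in Tg + Dox, 6 without overlap and 3 at an unadjusted p under 0.05, where 6.32% and 2.09% of all genes were. The median was 0.13. Myrf, the transcription factor that turns on myelin genes, was at 8.01, 7.97 and 8.10 in Tg + Dox, against 7.80 and 7.80 in Non + Dox. Its difference of 0.22 was small and its spread was smaller still (standard error 0.048, adjusted p = 0.691). Trf, the iron carrier transferrin, differed by 0.41 and Mal, a myelin proteolipid, by 0.34, both without overlap, whereas Mbp (0.02), Mog (−0.06) and Cnp (0.03), structural and enzymatic proteins of myelin, were near 0. Here Tg + Dox 1, not Tg + Dox 3, was the highest array on the median of the list (0.28, against 0.067 and −0.027), and the median difference was 0.06 without Tg + Dox 1 and 0.05 without Non + Dox 2. On this list the Non + Veh arrays were above the Non + Dox arrays too, at 0.214, 0.170 and 0.132. Precursors of oligodendrocytes, with 5 genes measured, had a median of 0.01 and none without overlap.

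Among all genes with a p under 0.01 and no overlap, the 12 highest in Tg + Dox were, after Gfap and C1qb, Cd9-ps (0.61), Abcd2 (0.52), Gjc3 (0.51), Cd9, Gm5945 (0.45), Anxa4 (0.44), Gatm (0.43), Htr5a (0.40), Slc16a14 (0.38) and Septin4 (0.37). Cd9-ps is a pseudogene of Cd9, and their probes may read the same RNA. Gatm, an enzyme of creatine synthesis, had the smallest p of any higher gene: it was at 11.77, 11.77 and 11.87 in Tg + Dox, against 11.42 and 11.33 in Non + Dox (standard error 0.065, adjusted p = 0.319). It was called on vehicle feed, at 12.26, 12.43 and 12.38 in Tg + Veh, against 11.49, 11.62 and 11.56 in Non + Veh. Unlike Gfap, its Tg + Dox arrays lay close together, and without any single array its difference stayed between 0.39 and 0.48. Gjc3, a connexin of myelinating glia, Abcd2, a peroxisomal transporter of very long fatty acids, and Septin4, a cytoskeletal GTPase, ran lower on the Non + Dox arrays than on any vehicle array: Abcd2 was at 10.47, 10.82 and 10.94 in Tg + Dox, against 10.33 and 10.12 in Non + Dox, and at 10.69 to 11.15 on the 6 vehicle arrays. The same layout held for Anxa4, Gm5945 and Htr5a and, by a smaller margin, for Cd9 and Gatm. Anxa4 was at 7.35 and 7.29 in Non + Dox, and at 7.82 to 8.21 on the 6 vehicle arrays. Htr5a, a serotonin receptor, and Slc16a14, a transporter of the monocarboxylate family, differed by 0.05 and −0.0030 on vehicle feed.

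Of the genes lower in Tg + Dox, Fgf14 was the clearest. This regulator of sodium channels was at 10.85, 11.09 and 11.19 in Tg + Dox, against 12.09 and 12.05 in Non + Dox, with a gap between the groups far larger than the spread in either. The difference was −1.03 (standard error 0.120, adjusted p = 0.167), or 2.04-fold, and without any single array it stayed between −1.10 and −0.93. On vehicle feed it was −1.03 as well (adjusted p = 0.00466), with 11.13, 11.26 and 10.98 in Tg + Veh, against 12.29, 12.17 and 12.01 in Non + Veh, and the differences on the feeds differed by 0.0056 (95% interval −0.36 to 0.37). Of the 15 tested genes nearest to Fgf14 on chromosome 14, all on the same side of it in the annotation, none had an unadjusted p under 0.05 and none lay without overlap. Of the tested genes of chromosome 14, 14.8% lay without overlap, and 2.09% of all genes were higher and 3.99% lower at that p in limma. Few of 15 genes would reach either mark at such shares, so these counts do not show that the difference was confined to Fgf14. At the other insertion site, Esyt2 differed by −0.75, Ptprn2 by −0.74 and Wdr60 by −0.61, each with overlap because of Non + Dox 2, and Camk2a, whose promoter drives tTA from the transgene, by −0.05, or by 0.05 after quantile normalization.

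The other 11 of the 12 lowest genes had a different layout over the groups. Npy2r, a receptor of neuropeptide Y, was at 7.39, 6.97 and 6.51 in Tg + Dox, against 8.02 and 7.97 in Non + Dox, and at 6.61, 6.30 and 6.66 in Tg + Veh, against 6.87, 6.88 and 6.92 in Non + Veh. The Non + Dox arrays were the highest of all 11, and the Tg + Dox arrays lay from below the Non + Veh arrays to above them. Its difference was −1.04 on doxycycline feed (standard error 0.213, adjusted p = 0.691) and −0.36 on vehicle feed. Epha6, a receptor of ephrins, was at 10.60, 10.63 and 9.83 in Tg + Dox, against 11.73 and 11.34 in Non + Dox (−1.19), while Non + Veh was at 10.58, 10.40 and 9.95. Shisa6, an auxiliary protein of AMPA receptors, was at 9.19, 8.84 and 8.29, against 9.37 and 10.25 in Non + Dox (−1.03), and its 6 vehicle arrays lay between 8.11 and 8.67. The rest were Gm4660 (−0.98), Gm2115 (−0.97), Doc2b, a calcium sensor of vesicle release (−0.91), Cabp7, a calcium-binding protein (−0.90), Snord72, a small nucleolar RNA (−0.84), Gm13315 (−0.70), Glra3, a glycine receptor subunit (−0.69), and Gm11334 (−0.67). Tg + Dox 3 was the lowest Tg + Dox array in each of these 11 genes. None of these 11 was called on vehicle feed, where the differences ran from −0.60 for Doc2b to 0.25 for Snord72.

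**Figure D4:**
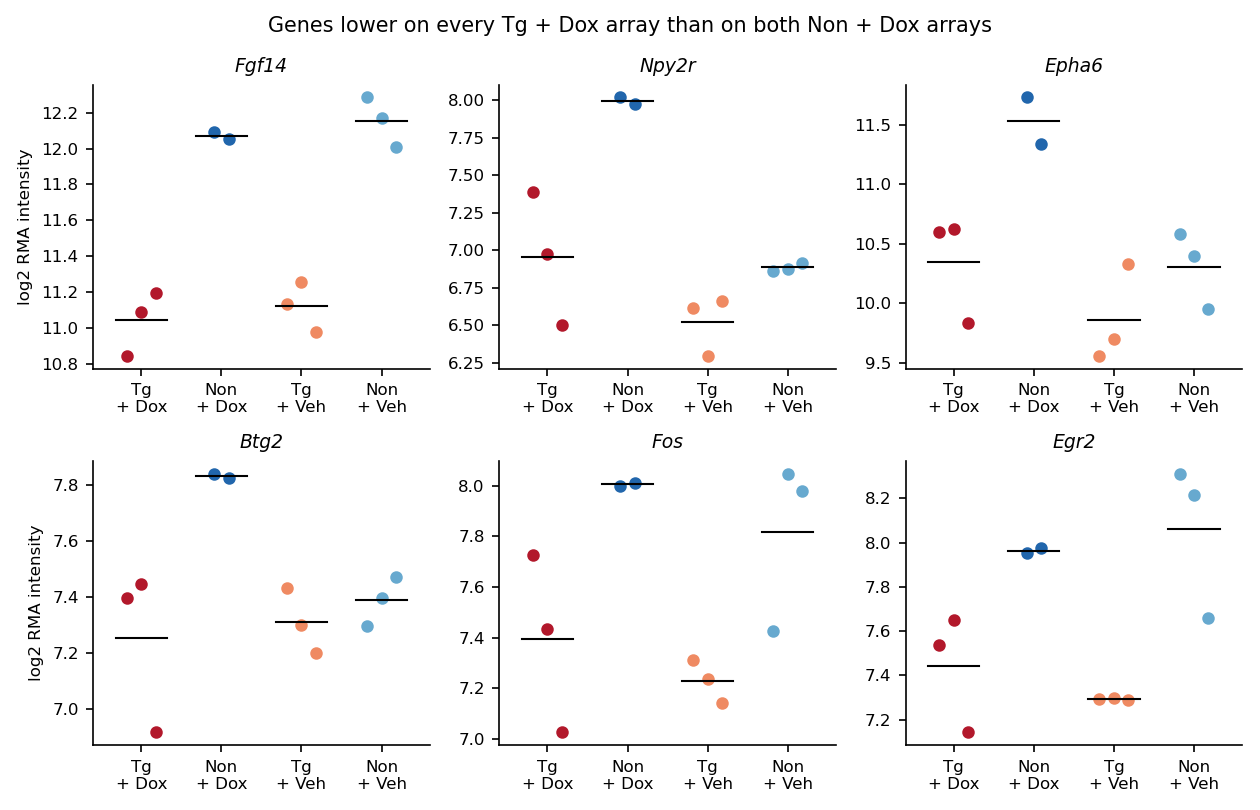
Log2 RMA intensity (vertical) of 6 genes that were lower on every Tg + Dox array than on both Non + Dox arrays, for each array (points) of the 4 groups (horizontal), with group means as bars; the vertical scale differs between panels. Fgf14 shows the same gap on both feeds, whereas Npy2r and Epha6 are highest on the Non + Dox arrays, at 7.97 or above and 11.34 or above.

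Immediate-early genes of neurons were lower in Tg + Dox as a list. Of 25 clusters of 23 genes measured (26 listed), 22 were below 0, with a median of −0.32, against −0.43 on vehicle feed. Without overlap 12 were lower, where 9% of all genes were, and 5 had an unadjusted p under 0.05: Btg2, Fos, Egr2, Egr1 and Arc. None was called, and on vehicle feed Egr1 alone of this list was. Fos, a subunit of the AP-1 transcription factor, was at 7.72, 7.44 and 7.03 in Tg + Dox, against 8.00 and 8.01 in Non + Dox (−0.61). Btg2, an inhibitor of proliferation induced by neuronal activity, was at 7.40, 7.45 and 6.92, against 7.84 and 7.83 in Non + Dox (−0.58). Egr2, a zinc-finger transcription factor, was at 7.54, 7.65 and 7.14, against 7.95 and 7.97 in Non + Dox (−0.52). In these 3 genes the Non + Dox arrays lay close together, and Tg + Dox 3 was the lowest of the Dox arrays.

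The promoters of these 3 genes are shown because they were the members furthest from 0 relative to their error. Immediate-early promoters often hold a CRE, bound by CREB, whose full form is TGACGTCA and whose core half-site is TGACG, and a CArG box, bound by SRF. The 250 bases before the start of transcription are from RefSeq (GRCm38.p6), 5′ to 3′ on the gene's own strand, with CRE half-sites, full CREs and CArG boxes on either strand in capitals. The Fos window is chr12:85473640-85473889, plus strand, the Btg2 window chr1:134079156-134079405, minus strand, and the Egr2 window chr10:67535249-67535498, plus strand.
Fos: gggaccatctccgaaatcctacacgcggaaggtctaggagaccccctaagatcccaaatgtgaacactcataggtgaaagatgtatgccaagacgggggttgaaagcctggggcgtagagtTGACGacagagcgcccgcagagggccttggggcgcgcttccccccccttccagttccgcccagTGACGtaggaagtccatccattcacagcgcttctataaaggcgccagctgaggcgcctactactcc
Btg2: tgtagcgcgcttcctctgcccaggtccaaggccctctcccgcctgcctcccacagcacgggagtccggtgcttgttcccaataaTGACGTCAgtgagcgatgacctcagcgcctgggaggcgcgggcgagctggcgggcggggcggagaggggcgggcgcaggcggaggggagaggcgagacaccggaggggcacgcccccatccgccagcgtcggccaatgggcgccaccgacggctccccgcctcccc
Egr2: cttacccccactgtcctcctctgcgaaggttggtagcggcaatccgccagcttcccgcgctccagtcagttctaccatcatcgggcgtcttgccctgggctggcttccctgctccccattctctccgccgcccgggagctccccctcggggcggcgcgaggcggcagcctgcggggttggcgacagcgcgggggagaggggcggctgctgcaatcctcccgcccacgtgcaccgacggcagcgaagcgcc
Fos held 2 half-sites, Btg2 a full CRE, whose palindrome counts as a half-site on each strand, and Egr2 none of the 3 motifs in this window. Of 19 listed genes with a promoter in the table, 12 (63.2%) held a half-site, where 17.9% of 27025 promoters did. A full CRE was in 2 (10.5%, against 1.62%) and a CArG box in 1 (5.26%, against 1.40%). Egr1 and Arc were among the listed genes that had no promoter to search, so these shares do not cover them. A match is a description of the letters and not a measured binding site.

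The other immediate-early genes varied in size and direction. Arc, a regulator of AMPA receptor uptake, was at 11.53, 11.67 and 10.51 in Tg + Dox, against 11.79 and 12.63 in Non + Dox (−0.97, adjusted p = 0.814). Nr4a1, an orphan nuclear receptor, differed by −0.75 without overlap. Egr1 was at 9.80, 9.99 and 9.58, against 10.05 and 10.22 in Non + Dox (−0.35), and at 9.24, 9.16 and 8.998 in Tg + Veh, below every Dox array. Jun went the other way (0.40, with overlap), and Nptx2, a secreted synaptic protein, differed by −0.0032. The median of the list ranged from −0.22 without Tg + Dox 3 to −0.40 without Tg + Dox 2, and it was −0.23 without Non + Dox 2 and −0.15 with sex as a term in the fit. The clock genes, of which some respond to neuronal activity, had a median of −0.17 with 10 of 14 below 0, and Per1 (−0.44) and Per2 (−0.43), repressors of the clock, lay lower without overlap. Without Tg + Dox 3 the median of the clock list was −0.02.

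Genes of synapses and of neuronal types were mostly near 0. The 30 measured synaptic genes had a median of 0.01, 16 above and 14 below 0, against −0.13 on vehicle feed. This balance rested on single arrays: 8 of 30 were above 0 without Tg + Dox 2 (median −0.050), 18 without Tg + Dox 1 (0.050) and 3 in the male arrays only (−0.087). Gria1, an AMPA receptor subunit, was at 13.99, 13.75 and 13.46 in Tg + Dox, against 14.18 and 14.21 in Non + Dox (−0.46), and Camk2b, a kinase of synapses, was lower by a difference of −0.14 without overlap. Markers of cortical layers had a median of 0.04 over 13 clusters, against −0.22 on vehicle feed. Otof, a calcium sensor that was called lower in Tg + Veh, was at 6.90, 7.15 and 6.90 in Tg + Dox, against 7.32 and 7.28 in Non + Dox (−0.32), and Bcl11b, a transcription factor of deep-layer neurons, differed by −0.42. Cacng3, an auxiliary protein of AMPA receptors that was called lower in Tg + Veh (−0.84), differed by 0.02 on doxycycline feed (95% interval −0.34 to 0.38). The 11 interneuron genes had a median of −0.04 and the 13 clusters of the unfolded protein response one of 0.01. Vip, a neuropeptide of interneurons, differed by 0.58 and Calb1, a calcium buffer, by −0.35 without overlap.

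Cytosolic ribosomal proteins had medians of opposite sign on the feeds. Over 42 clusters of 37 genes the median was −0.07 on doxycycline feed, with 32 of 42 below 0 and 8 lower without overlap, where 9% of all genes were, and 0.15 on vehicle feed. Rpl41, the shortest protein of the ribosome, was at 14.47, 14.68 and 14.38 in Tg + Dox, against 15.05 and 14.82 in Non + Dox (−0.43). It was at 14.76, 14.72 and 15.09 in Tg + Veh, against 14.40, 14.28 and 14.42 in Non + Veh (0.49), so the arrays split in opposite directions on the feeds. Ribosomal protein genes have many processed pseudogenes that can share probes, which leaves these levels uncertain. The median of this list was −0.02 without Non + Dox 1 and −0.15 without Non + Dox 2.

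Markers of other cell types and of tissue next to cortex were measured on the same arrays. Of 14 endothelial and mural genes 12 were higher in Tg + Dox, with a median of 0.16, among them Rgs5, a regulator of G proteins in pericytes (0.40), and Tek, an endothelial receptor kinase (0.28), both without overlap. The median was 0.02 without Non + Dox 1 and 0.32 without Non + Dox 2. In the male arrays only it was 0.0061, with 8 of 14 above 0. On the median of this list the Tg + Dox arrays stood 0.0061, 0.200 and 0.309 above the Non + Dox mean. The Non + Veh arrays were above that mean too, at 0.118, 0.184 and 0.272. All 7 striatal markers were lower, by a median difference of −0.24, with Ppp1r1b, a phosphatase inhibitor of striatal neurons (−0.28), without overlap. Their median was −0.13 without Tg + Dox 3, −0.11 without Non + Dox 1, −0.39 without Non + Dox 2 and −0.0026 in the male arrays only, where 3 of 7 were above 0. Of the 4 choroid plexus markers above the floor all were lower, with a median of −0.84. It was −0.11 without Non + Dox 1 and −1.55 without Non + Dox 2. Ttr, the thyroid hormone carrier of this tissue, was at 11.63, 9.92 and 8.12 in Tg + Dox, against 14.77 and 9.21 in Non + Dox, so both groups held high and low arrays. The 2 hippocampal markers, Prox1 (−0.29) and Wfs1 (−0.25), were lower, the 4 meningeal markers had a median of −0.14 that was 0.12 without Non + Dox 2, and no blood marker passed the floor. Whether these markers had a part in the residual difference was not tested.

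The 2 largest differences outside the sex-linked genes were in Tmem181a, named here after its values were seen. Its cluster TC1700001387.mm.1 was at 10.49, 10.61 and 10.77 in Tg + Dox, against 15.32 and 15.48 in Non + Dox (−4.78), and TC1700000055.mm.1 at 11.20, 11.45 and 11.40, against 14.39 and 14.48 in Non + Dox (−3.08). On vehicle feed the first cluster was at 16.63, 10.38 and 10.23 in Tg + Veh, against 10.43, 16.59 and 10.36 in Non + Veh, so the same high and low levels appeared within each vehicle group. In the fit to all 11 arrays neither cluster was called. With the 5 Dox arrays alone both were (adjusted p = 0.00605 and 0.0108), a fit that does not contain the split on vehicle feed. Dynlt1-ps1, a dynein light chain pseudogene, was high on the same 4 arrays, at 8.19, 7.41 and 7.51 in Tg + Dox, against 9.53 and 9.04 in Non + Dox.

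**Figure D5:**
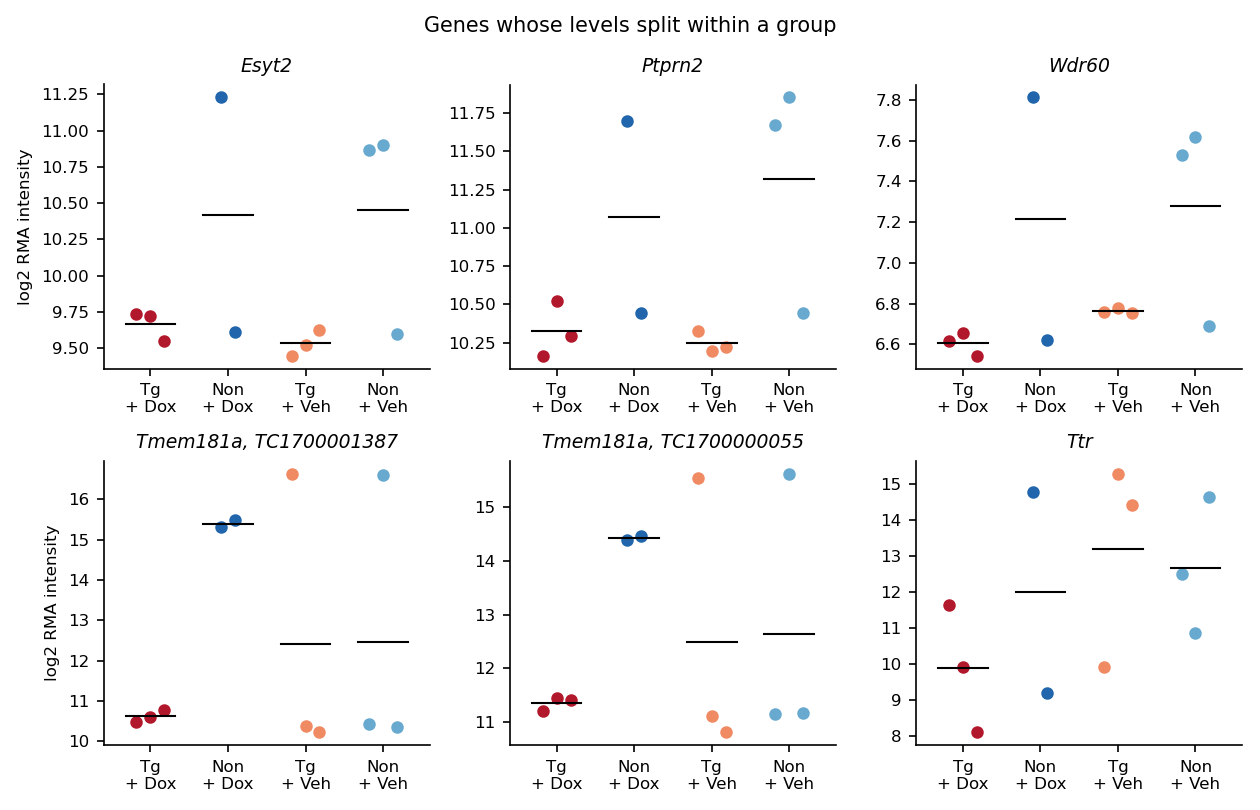
Log2 RMA intensity (vertical) of Esyt2, Ptprn2, Wdr60, both Tmem181a clusters and Ttr on each array (points) of the 4 groups (horizontal), with group means as bars; the vertical scale differs between panels. Esyt2, Ptprn2 and Wdr60 are at the Tg level on 1 of 2 Non + Dox arrays and 1 of 3 Non + Veh arrays, and both Tmem181a clusters are above 14 on both Non + Dox arrays, 1 of 3 Tg + Veh arrays and 1 of 3 Non + Veh arrays.

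Sex moved with the comparison, since the Non + Dox group held no female. Uty, a histone demethylase on the Y chromosome, was at 9.36, 5.48 and 5.55 in Tg + Dox, against 9.42 and 9.41 in Non + Dox, and Eif2s3x, a translation factor that escapes X inactivation, at 12.32, 12.96 and 13.08, against 12.17 and 12.12 in Non + Dox. With Tg + Dox 1, the male array, alone against the Non + Dox males, Gfap differed by 1.26 and C1qb by 0.72. The complement list then had a median of 0.32, the disease-associated microglia 0.13, the lysosomal genes 0.04 and the immediate-early genes −0.28. Of the 232 genes called higher in Tg + Veh, 188 were then above 0, with a median of 0.091. With sex as a term in the fit to 11 arrays, the complement genes had a median of 0.59 and the disease-associated microglia one of 0.36. The immediate-early median was then −0.15 and the clock median −0.06, both closer to 0 than without that term. In that fit 154 genes were higher and 359 lower at an unadjusted p under 0.05, none was called, and 192 of the 232 genes were above 0.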

How the data were processed

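The authors scanned total RNA of brain cortex on Clariom D arrays and deposited log2 RMA signals, 1 value per transcript cluster and array, with gene annotation from NetAffx as their methods state. Nothing was renormalized. Of 72688 rows, 12745 with 1 gene symbol and a value above 6.76, the intensity floor of the study's methods, on at least 1 of 11 arrays were tested. Just inside the floor was Aif1l (highest value 6.7604, difference 0.0015) and just outside it Hr (6.7597, 0.17). Of these rows, 12642 had a symbol that matched RefSeq, which gave positions only. Group means of all 4 groups were fitted together in limma 3.58.1 (R 4.3.3) with lmFit and eBayes, two-sided, with Benjamini-Hochberg adjustment over all rows tested, and the threshold of a call was an adjusted p of 0.05. The code was tested on simulated data.

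Named genes were the 12 highest and 12 lowest among genes with an unadjusted p under 0.01 and no overlap, the 10 largest rises and 6 largest falls called on vehicle feed, the 3 members of each of 24 lists furthest from 0 by moderated t, and the transgene and sex genes. Other list members, and genes said to be so, were named after their values were seen. The members and lists were chosen with earlier results of these data known. The choice of the 232 and 17 genes rested on vehicle arrays for the means, and on all 11 arrays for the spread. The fit was repeated with other floors, arrays, covariates, tests and scalings, with the replicate number as a block, and without each array.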

Additional observations from a re-analysis of the deposited data

Results flagged for a closer look

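In 4 of the 106 named rows the arrays separated by genotype in opposite directions on the 2 feeds, which is why they are given here. In none of the 4 did the test of the difference between the feeds pass over all genes in limma. Lpl was lower by a difference of −0.45 in Tg + Dox than in Non + Dox and higher by 0.16 in Tg + Veh than in Non + Veh (adjusted p of the difference between feeds 0.406). Prox1, a transcription factor of the dentate gyrus, differed by −0.29 on doxycycline feed and by 0.23 on vehicle feed (adjusted p = 0.406). Rpl41 differed by −0.43 and 0.49 (adjusted p = 0.324), and Rpl19, another ribosomal protein gene, by −0.19 and 0.28 (adjusted p = 0.406). Over all 12745 genes tested, 124 separated in opposite directions on the feeds without overlap and 352 in the same direction.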

How the results depend on the processing

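The count of 0 genes called between Tg + Dox and Non + Dox was 2 in a fit to the 5 Dox arrays alone and from 0 to 3 without 1 array (3 without Non + Dox 2). The 775 genes at an unadjusted p under 0.05 were 1787 with no intensity floor, 505 with the 5 Dox arrays alone, 513 with a term for sex, and between 435 (without Tg + Dox 3) and 1405 (without Tg + Dox 1). The 1952 genes without overlap were 4627 with no floor, 6827 with the males of the Dox arrays only and 1952 to 6332 without 1 array, since fewer arrays overlap less often. Quantile normalization moved the split: 1407 genes lay higher and 1036 lower without overlap, against 805 and 1147 as deposited, and 54.9% of differences were above 0, against 48.3%. The 249 genes called on vehicle feed were 149 with no floor, 1 with all 12 arrays, 112 in the unmoderated test, 149 with the males of the Dox arrays only, and 64 to 227 without 1 array. The test between feeds called 0 to 12 genes without 1 array (12 without Non + Dox 2). The median of 0.141 for the 232 genes was 0.0910 with the males only and 0.108 to 0.169 without 1 array, and that of −0.191 for the 17 genes −0.212 to −0.146. The causes were not tested.

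With the replicate block 0 genes were called on doxycycline feed, 210 were higher and 370 lower at an unadjusted p under 0.05, 121 were called on vehicle feed, and the medians of the 232 and 17 genes were 0.129 and −0.159. Same-numbered arrays deviated from their group means with correlations of −0.28 to 0.417 over 15 pairs. Other arrays had correlations of −0.411 to 0.399 over 30 pairs. Deviations within such small groups offset each other by construction, so these ranges cannot decide whether the numbers pair the arrays.

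Of the 106 named rows, these changed sign in at least 1 setting, all with small or split differences. With the males of the Dox arrays only, Cacng3 was at −0.15, Gm15624 0.037, H2-D1 −0.058, Aldoc −0.00050, Gpr17 −0.0088, Ptprz1 0.044, Sst 0.074, Hspa5 0.13, Kdm6a −0.12, Kdm5c −0.10, Kdm5d 0.019 and Eif2s3y 0.15. With sex as a term, Ptgds was at 0.084, Kdm6a −0.059, Kdm5c −0.029 and Eif2s3y 0.053, and with quantile normalization Camk2a was at 0.050. Without 1 array, Cacng3 ranged from −0.085 to 0.11, Gpr17 from −0.0084 to 0.14, Ptprz1 from −0.088 to 0.023, Ptgds from −0.56 to 0.12, Igf2 from −0.24 to 0.13, Esyt2 from −1.56 to 0.055 and Camk2a from −0.13 to 0.0062.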

Other observations

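Some genes outside the lists, chosen after their values were seen, set 1 array apart from the other Dox arrays. Rnu2-10, a U2 small nuclear RNA gene, was at 12.18, 12.61 and 12.17 (cluster TC1100001667.mm.1) in Tg + Dox, against 13.89 on Non + Dox 1 and 12.42 on Non + Dox 2. Gm23472 was at 12.23, 12.22 and 11.72 in Tg + Dox, against 13.75 on Non + Dox 1 and 12.17 on Non + Dox 2. Gabra6, a GABA receptor subunit of cerebellar granule cells, was at 4.38, 5.001 and 8.53 in Tg + Dox, against 4.43 and 4.54 in Non + Dox, so Tg + Dox 3 alone was high among these, and Non + Veh 2 was at 6.79. Glo1, a detoxifying enzyme with known copy number differences between mice, was at 10.29, 10.39 and 10.32 in Tg + Dox, against 11.44 and 11.07 in Non + Dox, and its 6 vehicle arrays ran from 10.44 to 11.66 across both genotypes.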
